A study of Homo sapiens with 6 samples.

Results

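Polyamine metabolism was examined in RKO cells, a human colorectal cancer cell line, through 9 genes taken by their symbols: ODC1, AMD1, SRM, SMS, SAT1, SMOX, OAZ1, OAZ2 and AZIN1. Each symbol matched 1 of the 61204 entries in every sample, and all 9 were among the 13945 genes tested. RNA sequencing covered 3 samples of RKO cells transfected with siANP32B, labelled as ANP32B knockdown, and 3 samples transfected with siCtrl, labelled as ANP32B wild type. The methods give more than 1 siANP32B sequence and do not say which was transfected for these libraries. All cells come from 1 line, so the groups differ by a transient transfection and not by a genetic change, and no source says whether the 3 samples of a group were separate cultures. The p-values below therefore rest on sample-to-sample spread alone, and this may be technical spread.

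Polyamines are small, positively charged molecules that bind RNA, DNA and chromatin and are needed for cell growth. ODC1 makes putrescine from ornithine, AMD1 makes the aminopropyl donor from S-adenosylmethionine, SRM adds an aminopropyl group to putrescine to give spermidine, and SMS adds another to give spermine. SAT1 acetylates spermidine and spermine so that they can be exported or broken down, and SMOX oxidizes spermine back to spermidine. The antizymes OAZ1 and OAZ2 bind the ODC1 protein, block it and send it to the proteasome, while AZIN1, a relative of ODC1 without its enzyme activity, binds antizyme in its place. Proliferating tumor cells, those of the colon included, are known for high ODC1 activity, and ODC1 and SRM are known targets of the transcription factor MYC.

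A pair of sequence features belongs to this control. The first is CACGTG, the E-box that MYC binds with its partner MAX, which reads the same on both strands. It was searched in RefSeq promoter windows of GRCh38.p14 that run from 250 bases before a transcript start to 50 bases after it. In all, 10 windows matched 7 of the 9 genes; SMOX and AZIN1 had no entry. The motif was found in 1 window of SRM and 1 of the ODC1 windows, and in none of the windows of AMD1, SMS, SAT1, OAZ1 and OAZ2. Of all 35116 windows, 7.26% held it at least once and 0.664% held it 2 or more times. The SRM match began 199 bases before the start, upstream of the gene, at chr1:11060192-11060237 on the reverse strand. The ODC1 window with the motif belongs to a downstream start, within the gene and outside its exons in GENCODE 29, at chr2:10447982-10448061 on the reverse strand. Its matches began 29 bases before and 5 bases after that start. These stretches are shown because ODC1 and SRM are known MYC targets and MYC was measured in the same samples, and the E-box is in capitals. A match of these letters is a description and not a binding site.
SRM: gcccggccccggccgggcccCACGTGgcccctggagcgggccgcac
ODC1: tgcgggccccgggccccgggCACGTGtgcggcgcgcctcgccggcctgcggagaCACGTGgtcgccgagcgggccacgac

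The other feature is the frameshift site of the antizymes, shown because both antizyme mRNAs carry it and because FPKM values of these mRNAs do not measure it. Ribosomes must slip by a base at a stop codon to make full antizyme, and they do so more often when polyamines are abundant. The stretch lies in exons at chr19:2271430-2271459 on the forward strand for OAZ1 and at chr15:64691499-64691528 on the reverse strand for OAZ2 (GRCh38, GENCODE 29). The site TCCTGAT, written as DNA and given in capitals, includes the stop codon TGA. Over 30 bases the genes share 29.
OAZ1: tcggtggtgcTCCTGATgcccctcacccac
OAZ2: tctgtggtgcTCCTGATgcccctcacccac

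Levels are given in FPKM, in which a gene's fragments are divided by its length in kilobases and by the sample's total. The totals behind them ran over 14577044 to 16393123 fragments in siANP32B and 14304093 to 18987041 fragments in siCtrl. ANP32B mRNA was at 67.2 ± 11.7 FPKM in siANP32B and 449 ± 18.6 FPKM in siCtrl (mean ± S.D., n = 3 each), so the knockdown left 15.0% of the control mean. Of 5 epithelial markers, 3 (EPCAM, KRT8 and KRT18) were above 1 FPKM, with a sum of 71.0 to 74.1 FPKM in siANP32B and 67.4 to 74.0 FPKM in siCtrl, while CDH1 and KRT19 were at or near 0. The intestinal factor CDX2 was at 10.2 to 11.9 FPKM over the 6 samples, and VIL1 and KRT20 were at or near 0. Leukocyte markers summed to at most 0.209 FPKM, and endothelial markers to 0.284 to 0.470 FPKM in siANP32B and 0.672 to 1.02 FPKM in siCtrl. Fibroblast markers, through COL1A1, summed to 1.16 to 2.05 FPKM in siANP32B and 2.83 to 4.16 FPKM in siCtrl, and the part of this difference in the results was not tested. In siCtrl replicates 2 and 3, 12 genes lay far below the other 4 samples (less than 25% of their lowest value), and none of them was a polyamine gene.

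Among the enzymes that make polyamines, SRM changed most. SRM (ENSG00000116649, chr1:11054584-11060024, reverse strand) encodes spermidine synthase. Its level was 133, 126 and 139.7 FPKM in siANP32B replicates 1, 2 and 3, against 80.1, 99.8 and 93.5 FPKM in siCtrl replicates 1, 2 and 3. Every siANP32B sample lay above every siCtrl sample, and siCtrl replicate 1 was the lowest. SRM rose 1.46-fold, to 133 ± 6.65 FPKM in siANP32B against 91.2 ± 10.1 FPKM in siCtrl (n = 3 each; log2 fold change 0.54, standard error 0.08, adjusted p = 5.65e-04 from limma). Log2 fold changes here are on the scale of log2(FPKM + 1), which understates changes of genes with low values. Plain folds, such as the 1.46-fold of SRM, are ratios of the mean FPKM values. In bulk samples, a change in the share of cells of 1 kind and a change in RNA per cell cannot be told apart. The call held in all 14 alternatives, with log2 fold changes of 0.46 to 0.72. One of these used siCtrl replicate 1 as the only control, so its spread came from the siANP32B samples and that control was assumed to vary as they did. The lowest was without siCtrl replicate 1 and the highest with that sample as the only control. MYC itself was at 601 ± 24.6 FPKM in siANP32B and 361 ± 7.08 FPKM in siCtrl (n = 3 each; log2 fold change 0.73, adjusted p = 4.03e-06 from limma). Whether this rise of MYC bears on the level of SRM or of ODC1 was not tested.

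ODC1 (ENSG00000115758, chr2:10439968-10448504, reverse strand), the rate-limiting enzyme of the pathway, was at 329, 289.6 and 300.0 FPKM in siANP32B, against 259, 298 and 259.9 FPKM in siCtrl. The groups overlapped, since siCtrl replicate 2 stood above siANP32B replicate 2. The means were 306 ± 20.5 FPKM in siANP32B and 272 ± 22.5 FPKM in siCtrl (n = 3 each), and the log2 fold change was 0.17 (95% interval 0.02 to 0.32, adjusted p = 0.0677 from limma). When 1 sample was left out, it ran over 0.118 without siANP32B replicate 1 (adjusted p = 0.211 from limma) to 0.238 without siCtrl replicate 2 (adjusted p = 0.0140 from limma), and only the last passed the threshold. It also passed with both library scalings, at 0.24 and 0.28.

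AMD1 (ENSG00000123505, chr6:110874770-110895713, forward strand) encodes adenosylmethionine decarboxylase, whose product is used by both SRM and SMS. AMD1 was at 75.4, 76.9 and 71.5 FPKM in siANP32B, against 69.3, 63.9 and 68.1 FPKM in siCtrl, without overlap. It rose 1.11-fold, to 74.6 ± 2.78 FPKM in siANP32B against 67.1 ± 2.80 FPKM in siCtrl (n = 3 each; log2 fold change 0.15, standard error 0.05, adjusted p = 0.0390 from limma). This call was close to the threshold: it was lost when siANP32B replicate 1 or 2 was left out, with log2 fold changes of 0.14 and 0.13, and when siCtrl replicate 2 or 3 was left out, with 0.12 and 0.16. AMD1 kept its call with both library scalings, at 0.22 and 0.26.

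SMS (ENSG00000102172, chrX:21940573-21994835, forward strand), spermine synthase, was at 252, 264 and 250.3 FPKM in siANP32B and at 239, 252 and 248 FPKM in siCtrl, and the groups overlapped. Its log2 fold change was 0.05 (95% interval -0.04 to 0.14, adjusted p = 0.318 from limma), which leaves room for a small change in either direction. It was 0.028 without siANP32B replicate 2 and 0.032 without siCtrl replicate 1. With median-of-ratios scaling of the libraries it was 0.12 and did not pass the threshold, and with upper-quartile scaling it was 0.16 and passed. SMS, which adds the last aminopropyl group, thus had a far smaller fitted difference than SRM.

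**Figure D1:**
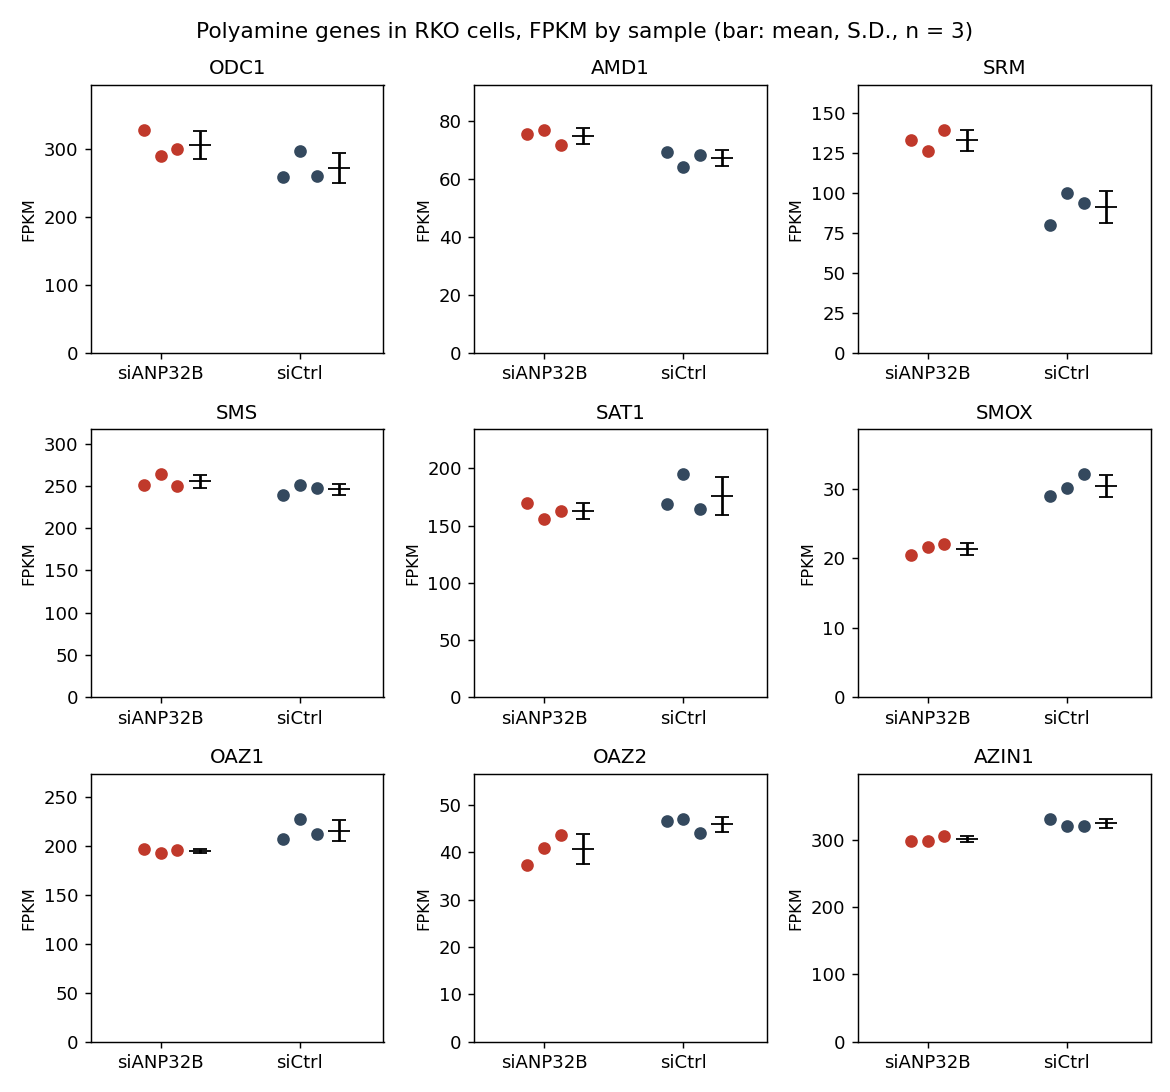
Levels of the 9 polyamine genes in FPKM, in a panel each, with siANP32B samples in red and siCtrl samples in dark blue. Dots are samples, in the order of replicates 1, 2 and 3, and the bar beside them is the mean with its S.D. (n = 3). SRM lies at 126 to 139.7 FPKM in siANP32B and at 80.1 to 99.8 FPKM in siCtrl, and SMOX at 20.4 to 22.0 FPKM in siANP32B and at 28.97 to 32.1 FPKM in siCtrl, while the dots of ODC1, SMS and SAT1 overlap between groups.

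Of the enzymes that break polyamines down, SMOX fell and SAT1 did not pass the test. SMOX (ENSG00000088826, chr20:4120980-4187747, forward strand), spermine oxidase, releases hydrogen peroxide as it turns spermine back to spermidine. It was at 20.4, 21.7 and 22.0 FPKM in siANP32B, against 28.97, 30.1 and 32.1 FPKM in siCtrl. The highest siANP32B sample lay well below the lowest siCtrl sample. SMOX fell to 21.4 ± 0.862 FPKM in siANP32B, against 30.4 ± 1.58 FPKM in siCtrl (n = 3 each), or 70.3% of the control mean (log2 fold change -0.49, standard error 0.06, adjusted p = 3.53e-04 from limma). The call held in all 14 alternatives, with log2 fold changes of -0.52 to -0.39. SMOX had the lowest level of the 9 genes, and its values rest on at least 442 fragments in each sample, for which counting alone gives an error of at most 4.76%.

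SAT1 (ENSG00000130066, chrX:23783173-23786226, forward strand), the acetyltransferase that starts polyamine export and breakdown, was at 169, 156 and 163 FPKM in siANP32B and at 168, 195.0 and 165 FPKM in siCtrl. The groups overlapped, and siCtrl replicate 2 stood above all the other samples. The log2 fold change was -0.11 (95% interval -0.26 to 0.04, adjusted p = 0.216 from limma), and it was -0.034 without siCtrl replicate 2, -0.039 with median-of-ratios scaling and -0.002 with upper-quartile scaling. No alternative called SAT1.

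The antizymes and the antizyme inhibitor, which act on the ODC1 protein, had small negative fold changes. OAZ1 (ENSG00000104904, chr19:2269509-2273490, forward strand) was at 197, 193 and 196 FPKM in siANP32B, against 207, 228 and 212 FPKM in siCtrl. The groups did not overlap, and siCtrl replicate 2 was the highest. OAZ1 fell to 195 ± 2.38 FPKM in siANP32B, against 216 ± 10.9 FPKM in siCtrl (n = 3 each; log2 fold change -0.14, standard error 0.04, adjusted p = 0.0269 from limma). This call did not hold with median-of-ratios scaling, where the log2 fold change was -0.07, and it was lost without siANP32B replicate 1, 2 or 3 (log2 fold changes of -0.152, -0.135 and -0.146) or siCtrl replicate 2 or 3 (-0.10 and -0.16). OAZ1 shares 236 exon bases with JSRP1, a gene on the opposite strand that was at 39.9 to 41.1 FPKM in siANP32B and 31.1 to 38.9 FPKM in siCtrl, and how the reads of these were assigned was not tested.

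OAZ2 (ENSG00000180304, chr15:64687573-64703281, reverse strand) lay below OAZ1 in level, at 37.3, 41.0 and 43.7 FPKM in siANP32B, against 46.6, 47.2 and 44.0 FPKM in siCtrl. The groups did not overlap, though siANP32B replicate 3 and siCtrl replicate 3 lay close together. The log2 fold change was -0.17 (95% interval -0.32 to -0.03, adjusted p = 0.0615 from limma), and it was -0.104 with median-of-ratios scaling and -0.068 with upper-quartile scaling. Without siANP32B replicate 1 it was -0.114, and without siANP32B replicate 3 it was -0.225 and passed the threshold. The fitted differences of OAZ1 and OAZ2 were thus of similar size, and the samples of OAZ2 were more spread in siANP32B.

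AZIN1 (ENSG00000155096, chr8:102826357-102893864, reverse strand) was at 298, 299 and 306 FPKM in siANP32B, against 331, 320.2 and 321 FPKM in siCtrl. It fell to 301 ± 4.50 FPKM in siANP32B, against 324 ± 6.37 FPKM in siCtrl (n = 3 each), without overlap (log2 fold change -0.11, standard error 0.03, adjusted p = 0.0359 from limma). The direction depended on the scaling: with upper-quartile scaling the log2 fold change was 0.001. The call was also lost without siCtrl replicate 1 or 3, with log2 fold changes of -0.09 and -0.11, and without siANP32B replicate 1, 2 or 3, with -0.10, -0.10 and -0.12.

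Of the 9 genes, SRM and AMD1 were thus higher and SMOX, OAZ1 and AZIN1 lower in siANP32B, and 4 did not pass the test. Over all 13945 genes tested, 39.2% were called, with 14.6% higher and 24.6% lower, and with 9 genes the 5 calls are no result about the group as a whole. Groups did not overlap for 6 of the 9 genes and for 51.1% of all genes tested. The median log2 fold change was -0.11 for the 9 genes and -0.06 for all genes tested. SRM had a larger absolute log2 fold change than 87.7% of the tested genes and SMOX than 84.4%, whereas the other 7 genes lay between 13.4% and 41.7%. The split depended on how the libraries were scaled. With median-of-ratios scaling 37.6% of all genes were called, 19.3% higher and 18.4% lower, and of the 9 genes SRM, AMD1 and ODC1 were higher and SMOX was lower. With upper-quartile scaling 38.0% were called, 22.1% higher and 15.9% lower, and SMS joined the higher genes. Against siCtrl replicate 1 alone, with the spread taken from the siANP32B samples, 22.3% were called, 8.67% higher and 13.6% lower, and of the 9 genes SRM was higher and SMOX lower. With limma-voom on fragments recovered from the FPKM values 43.3% were called, 15.8% higher and 27.5% lower, and ODC1 and OAZ2 were called besides the 5 genes above.

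The order of the levels in FPKM was nearly the same in both groups. FPKM is per length, but the length that the authors used for each gene is not stated, and the order between genes depends on it. In siANP32B it ran ODC1, AZIN1, SMS, OAZ1, SAT1, SRM, AMD1, OAZ2 and SMOX, with means of 306 FPKM for ODC1 to 21.4 FPKM for SMOX. In siCtrl AZIN1, at 324 FPKM, stood above ODC1, at 272 FPKM, and the other 7 genes came in the same order. The ranges of neighbours overlapped only for ODC1 and AZIN1 in siANP32B, where ODC1 ran over 289.6 to 329 FPKM and AZIN1 over 298 to 306 FPKM.

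Ratios between these genes within a sample do not depend on how the libraries were scaled. The ratio of ODC1 to the sum of OAZ1 and OAZ2 was 1.40, 1.24 and 1.253 in siANP32B, against 1.02, 1.08 and 1.01 in siCtrl. Every siANP32B sample lay above every siCtrl sample (1.249-fold between geometric means, p = 0.10 in an exact permutation test of both sides, which cannot go lower with 3 samples against 3). Another 5 ratios were chosen after the values were seen. The ratio of SMS, which makes spermine, to SMOX, which oxidizes it, was 12.3, 12.2 and 11.4 in siANP32B, against 8.25, 8.35 and 7.72 in siCtrl. The ratio of SRM to SMS was 0.528, 0.478 and 0.558 in siANP32B, against 0.335, 0.397 and 0.377 in siCtrl. These ratios did not overlap between the groups, nor did those of SRM to SAT1 (0.818 ± 0.0365 in siANP32B and 0.519 ± 0.0466 in siCtrl) and of ODC1 to AZIN1 (1.02 ± 0.0746 in siANP32B and 0.841 ± 0.0800 in siCtrl, mean ± S.D., n = 3 each). The ratio of AMD1 to ODC1, the decarboxylases that feed SRM, overlapped, at 0.244 ± 0.0188 in siANP32B and 0.248 ± 0.0293 in siCtrl. Over the 6 ratios, the exact permutation p was 0.10 for 5 and 0.90 for AMD1 to ODC1, and 0.12 and 0.90 after Benjamini-Hochberg adjustment. For the 5 ratios chosen after the values were seen, these p-values are a description and not a test. The adjustment covers the 6 ratios only and not the choice among other pairs of genes.

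**Figure D2:**
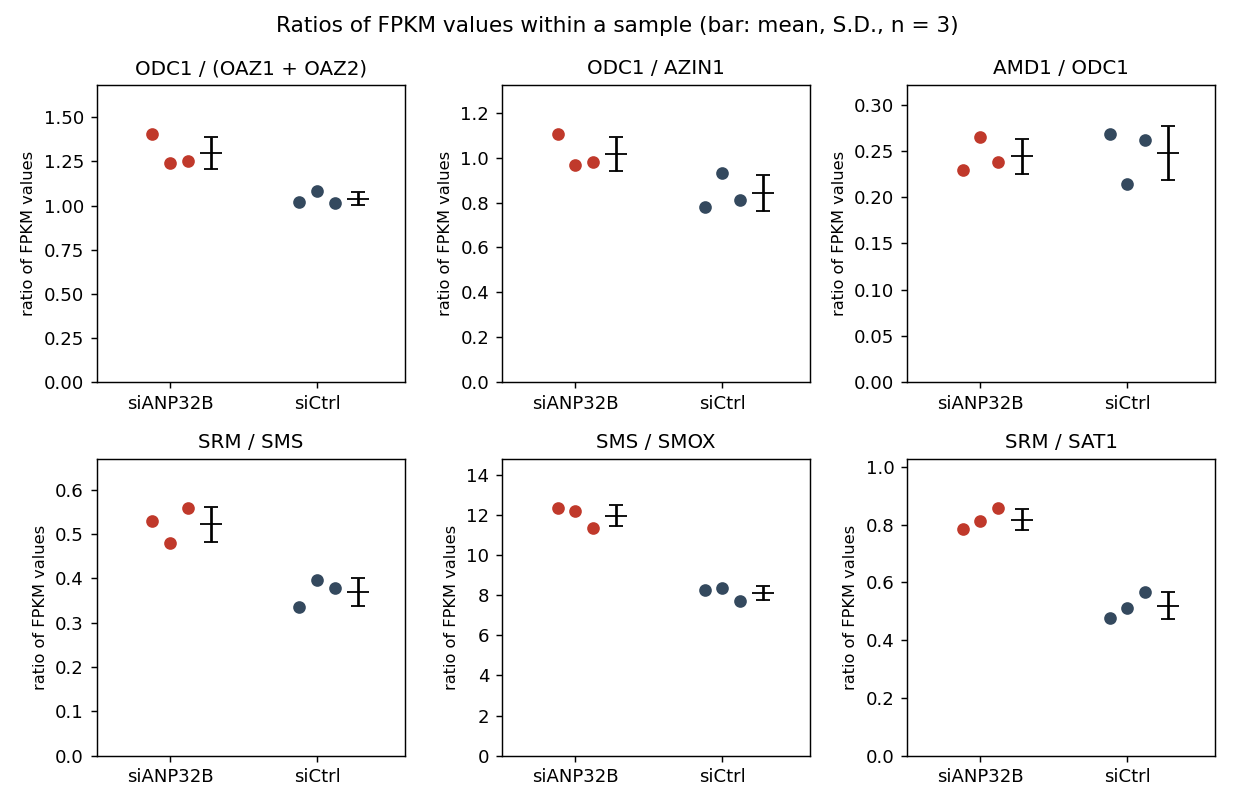
Ratios of FPKM values within each sample, in a panel each, with siANP32B samples in red and siCtrl samples in dark blue. Dots are samples, in the order of replicates 1, 2 and 3, and the bar is the mean with its S.D. (n = 3). SMS over SMOX lies at 11.4 to 12.3 in siANP32B and at 7.72 to 8.35 in siCtrl, and AMD1 over ODC1 overlaps between groups.

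Around these genes, 37 others supply precursors, recycle by-products, move polyamines or use them. Of these 26 were tested, 6 were higher, 8 were lower and 12 did not pass the test in siANP32B against siCtrl. Among all genes tested, 14.6% were higher and 24.6% lower, and the median log2 fold change of the 26 genes was -0.05. The count of 8 lower genes depended on the scaling and was 3 with median-of-ratios scaling, while that of higher genes stayed at 6. With that scaling, the shares of all genes tested also moved, to 19.3% higher and 18.4% lower.

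In the supply of ornithine, SLC25A15, the mitochondrial ornithine carrier, rose to 19.9 ± 0.841 FPKM in siANP32B, against 16.5 ± 1.10 FPKM in siCtrl (n = 3 each; log2 fold change 0.26, adjusted p = 0.0207 from limma). The call was lost without siCtrl replicate 1 (0.21) and without siANP32B replicate 2 or 3 (0.25 and 0.23). OAT, which turns ornithine into a proline precursor, fell by 0.13 on the log2 scale (adjusted p = 0.0401 from limma) and was not called with either library scaling, at -0.058 and -0.022, nor without any 1 sample but siANP32B replicate 2, at -0.145 to -0.099. ARG1, OTC and SLC25A2 were below the minimum for the test. Of the subunits of methionine adenosyltransferase, which makes S-adenosylmethionine, the catalytic MAT2A was at 229.7, 218 and 202 FPKM in siANP32B, against 175, 180.3 and 171 FPKM in siCtrl. MAT2A rose 1.23-fold without overlap (log2 fold change 0.30, adjusted p = 0.00145 from limma), and the regulatory MAT2B fell, with a log2 fold change of -0.27 (adjusted p = 0.0289 from limma). MAT2B lost its call with both library scalings, at -0.202 and -0.167, and without siCtrl replicate 2 (-0.194) or siANP32B replicate 2 or 3 (-0.222 and -0.26).

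Each aminopropyl transfer by SRM or SMS leaves methylthioadenosine, which MTAP cleaves so that its methionine can be rebuilt. MTAP was at 76.3, 77.0 and 72.1 FPKM in siANP32B, against 103, 99.4 and 103 FPKM in siCtrl. It fell to 74.0% of the control mean (log2 fold change -0.43, adjusted p = 9.16e-05 from limma) and kept its call in all 14 alternatives. Of the 5 other salvage genes tested, MRI1 and GOT1 were also lower, with log2 fold changes of -0.22 and -0.24, and APIP, ENOPH1 and ADI1 did not pass the test. MRI1 was called in 2 and GOT1 in 5 of 14 alternatives. MRI1 lost its call without any 1 sample, at -0.257 to -0.182, and GOT1 without siCtrl replicate 2 (-0.147) or siANP32B replicate 1, 2 or 3 (-0.272, -0.204 and -0.257). SRM, which makes methylthioadenosine, and MTAP, which removes it, moved in opposite directions.

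Among transport genes, SLC7A2, a carrier of arginine, lysine and ornithine, was at 10.5, 10.1 and 9.78 FPKM in siANP32B, against 5.65, 4.93 and 5.01 FPKM in siCtrl. It rose 1.95-fold between the means (log2 fold change 0.84, standard error 0.09, adjusted p = 1.56e-04 from limma). Its relative SLC7A1 rose by 0.17 on the log2 scale (adjusted p = 0.00502 from limma), and the vesicular polyamine transporter SLC18B1 by 0.29 (adjusted p = 0.00447 from limma). SLC7A1 and SLC18B1 each kept their call in 13 of 14 alternatives. The exception was siCtrl replicate 1 as the only control, where the log2 fold changes were 0.15 and 0.29. SLC3A2, the heavy chain of amino acid transporters that has also been linked to polyamine export, fell to 666 ± 20.3 FPKM in siANP32B, against 801 ± 42.4 FPKM in siCtrl (n = 3 each; adjusted p = 0.00159 from limma). ATP13A3, a P5B ATPase of polyamine uptake, fell, with a log2 fold change of -0.17 (adjusted p = 0.0260 from limma), and was not called with either library scaling, at -0.103 and -0.066, nor without siCtrl replicate 1 or 3 (-0.134 and -0.182) or siANP32B replicate 3 (-0.129). ATP13A2, its lysosomal relative, was at 56.8 ± 4.26 FPKM in siANP32B and 57.9 ± 1.05 FPKM in siCtrl.

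Spermidine also donates the group that turns a lysine of the translation factor eIF5A into hypusine. EIF5A was at 271, 288 and 264 FPKM in siANP32B, against 205, 224 and 231 FPKM in siCtrl, and rose (log2 fold change 0.32, adjusted p = 0.00144 from limma). Its paralog EIF5A2 was at 29.6, 34.5 and 29.8 FPKM in siANP32B, against 45.7, 36.5 and 42.7 FPKM in siCtrl, and fell (log2 fold change -0.40, adjusted p = 0.00746 from limma). Both calls held in all 14 alternatives. The enzymes of the modification, DHPS and DOHH, did not pass the test, with log2 fold changes of 0.20 and 0.09. Of the remaining relatives of the core genes, SAT2, OAZ3 and AZIN2 did not pass the test, and PAOX and SATL1 were too low for it.

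**Figure D3:**
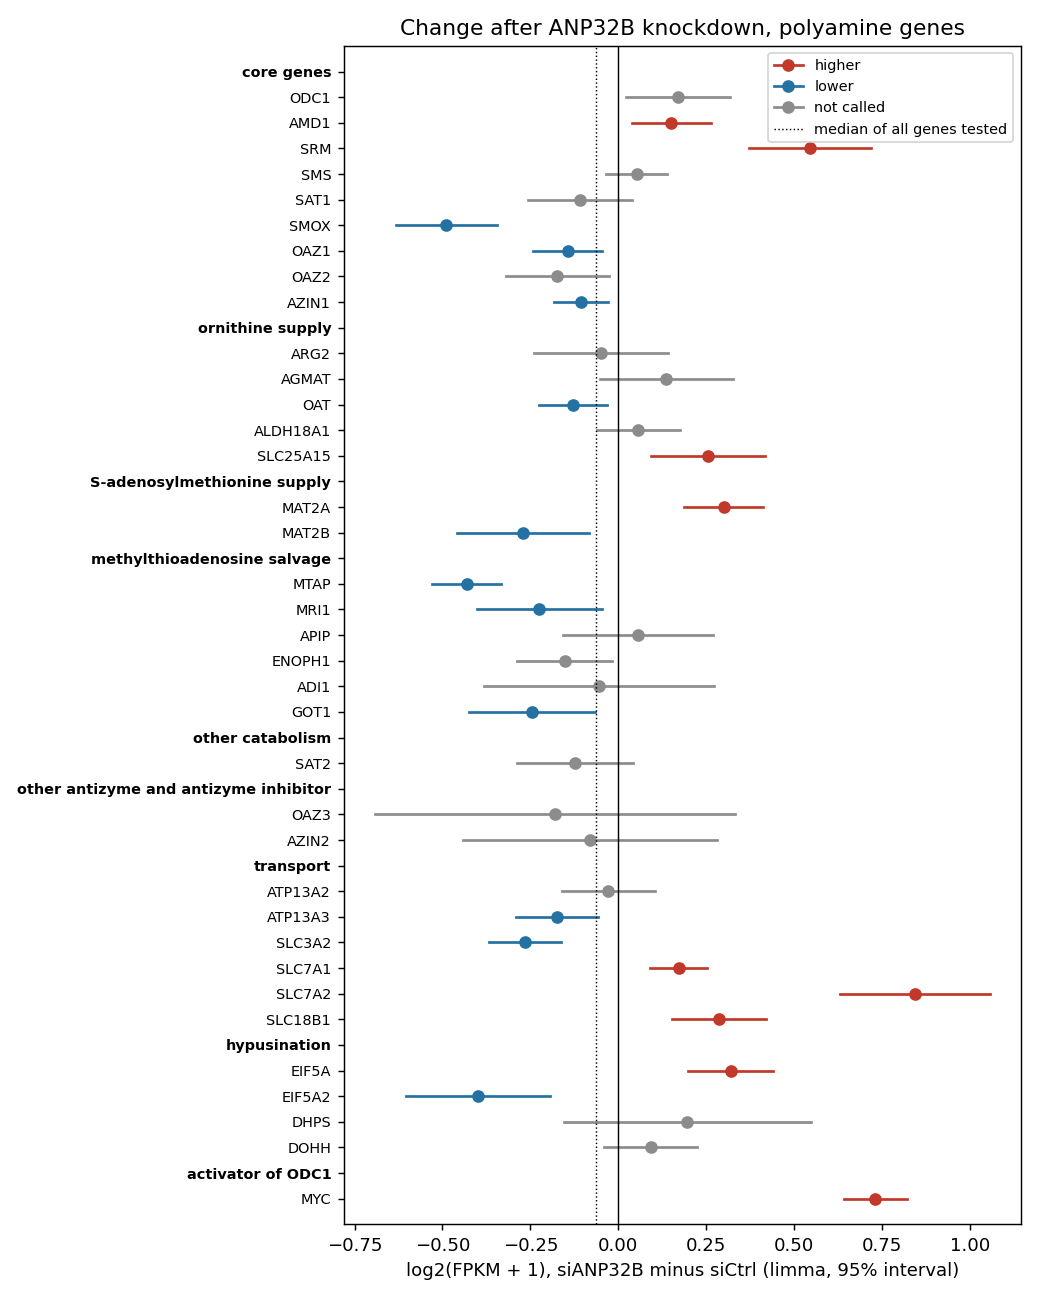
Log2 difference of siANP32B minus siCtrl with its 95% interval from limma (x axis, log2(FPKM + 1)) for the 9 core genes, the 26 tested genes of the wider lists and MYC (rows). Red marks genes called higher, blue genes called lower and grey genes not called, and the dotted line is the median of all genes tested (-0.06). SRM at 0.54, SLC7A2 at 0.84 and MYC at 0.73 lie farthest to the right, and SMOX at -0.49 and MTAP at -0.43 farthest to the left.

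The genes most like ODC1, AMD1 and SAT1 over the 6 samples were found by the distance between their centred log2(FPKM + 1) values, among 9999 genes that averaged 5 FPKM or more. Since they were chosen by these same values, a pattern or call shared with the core gene follows largely from the choice and is only a description. For ODC1 these were XPNPEP3, DIS3L2 and PRMT9, at distances of 0.062 to 0.084, and like ODC1 they were not called. For AMD1 they were BOD1L1, MIB1 and NACC2, at 0.039 to 0.043, with log2 fold changes of 0.12 to 0.17. BOD1L1 and MIB1 were called higher, and NACC2 was not called (adjusted p = 0.0874 from limma). For SAT1 they were CABLES2, DYRK3 and MTIF2, at 0.040 to 0.072, and siCtrl replicate 2 was the highest sample in all 3 as in SAT1. Entries of the same families added little: the pseudogenes of AMD1, SRM, SMS and OAZ1 did not exceed 0.287 FPKM in any sample, and ODC1-DT, a divergent transcript beside ODC1, was at 3.94 to 4.99 FPKM in siANP32B and 4.47 to 5.88 FPKM in siCtrl.

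**Figure D4:**
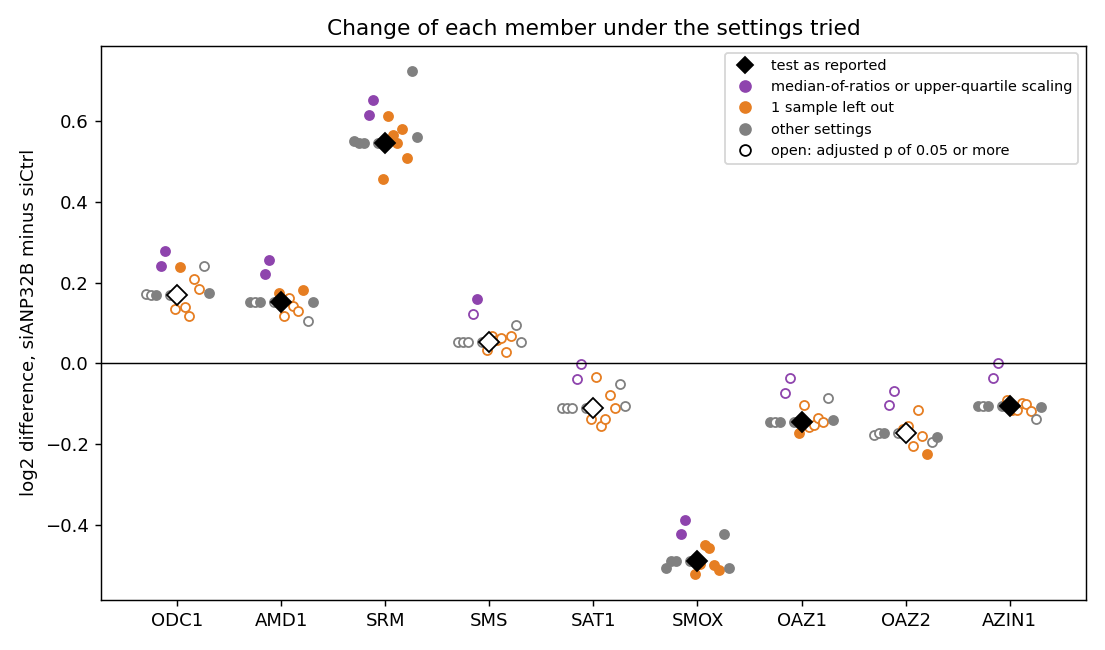
Log2 difference of siANP32B minus siCtrl (y axis) for each of the 9 genes (x axis) in the test as reported (diamonds) and under 14 alternatives (circles), with filled symbols for an adjusted p under 0.05. SRM stays at 0.46 to 0.72 and SMOX at -0.52 to -0.39 with all symbols filled, and the library scalings (purple) shift every gene upward.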

How the data were processed

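The authors sequenced paired-end libraries of RKO cells and deposited 1 value per gene and sample. RSEM, Bowtie2 and DESeq2 are listed, with the build GRCh38, in the authors' processing notes; the sources used here give no versions, annotation, filters or use of strand. The deposited files name no unit. They were taken as FPKM from the authors because, of 17961 genes above 0 in all samples, 17959 gave whole fragments for 1 whole gene length (20 to 60000 bases, tolerance 0.002). Totals were set with GENCODE 29 exon lengths, and fragments per gene are the smallest that the values allow, with 1 exception. Where the GENCODE 29 length was a small whole multiple of the smallest fitting length, the GENCODE 29 length was used. For the core genes the fragments are the smallest.

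The 13945 genes that averaged 1 FPKM or more were compared as log2(FPKM + 1) with limma 3.58.1 (variance trend, no block) in R 4.3.3. Benjamini-Hochberg adjustment was used, with a threshold of 0.05. The test was also run on simulated data. These held no difference in library scaling, so they do not bear on how the calls depend on scaling. Python 3.11.15 with scipy 1.17.1, pandas 2.3.3, numpy 2.4.6 and, for plots, matplotlib 3.10.9 did the rest. Named genes were the 9 polyamine genes, ANP32B, MYC and the called or otherwise needed genes of the wider lists. Genes and lists were chosen with earlier results of these data known. Alternatives were pseudocount, filter, scaling, a block, samples left out, siCtrl replicate 1 as the only control and, added after the values were seen, limma-voom on recovered fragments. The protein comparisons that had been planned are not reported here.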

Additional observations from a re-analysis of the deposited data

How the results depend on the processing

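Of the core genes, SRM and SMOX kept direction and call in all 14 alternatives, and so did MYC, MAT2A, MTAP, SLC3A2, SLC7A2, EIF5A and EIF5A2. The other calls of core genes depended on the setting; the cause was not tested beyond what each setting changes. With no filter on low values (more genes tested), the log2 fold changes of AMD1, OAZ1 and AZIN1 were 0.15, -0.14 and -0.11 and not called, leaving 1 higher and 1 lower core gene and 3 lower wider genes. With a minimum of 5 FPKM, ODC1 (0.17) and OAZ2 (-0.17) were called. With median-of-ratios scaling, which moved the median of all genes to 0.001 from -0.06, ODC1 (0.24) was called, OAZ1 (-0.074) and AZIN1 (-0.035) were not, and 1 core gene and 3 wider genes were lower. With upper-quartile scaling (median 0.03), ODC1 (0.28) and SMS (0.16) were called, OAZ1 (-0.037) was not, AZIN1 turned to 0.001, 4 core genes were higher and 1 lower, and 3 wider genes were lower. With limma-voom, added after the values were seen, ODC1 (0.17) and OAZ2 (-0.18) were called. With siCtrl replicate 1 as the only control, where the spread comes from the siANP32B samples and that control is assumed to vary as they do, AMD1 (0.105), OAZ1 (-0.086) and AZIN1 (-0.14) were not called, 1 core gene was higher and 1 lower, and 4 wider genes were lower.

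The labels give only shared replicate numbers, and deviations of same-numbered samples correlated at -0.006 to 0.021, so the numbers were not taken as pairs. With the replicate block, AMD1 (0.15) was not called and 1 core gene was higher; the block changed no other call of a core gene, and the log2 difference of the ODC1 to antizyme ratio stayed at 0.32.

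When 1 sample was left out, log2 fold changes ran over 0.12 to 0.24 for ODC1, 0.12 to 0.18 for AMD1, 0.028 to 0.068 for SMS, -0.155 to -0.034 for SAT1, -0.17 to -0.10 for OAZ1, -0.23 to -0.11 for OAZ2 and -0.12 to -0.09 for AZIN1. Core genes called were 1 to 2 higher and 1 to 2 lower, and lower wider genes were 3 to 6. For these fits, and for those with no filter, a 5 FPKM minimum or the block, the share of all genes called is not given here. Their counts are thus no result about the polyamine genes. Among wider genes that were not called, the sign turned for ARG2 (0.02, 0.055 and 0.016 with median-of-ratios scaling, upper-quartile scaling and siCtrl replicate 1 alone; -0.096 to 0.03 with a sample left out), ADI1 (0.002 and 0.031 with the scalings; -0.164 to 0.01), AZIN2 (0.006 with upper-quartile scaling; -0.204 to 0.079), ATP13A2 (0.042 and 0.078 with the scalings; -0.087 to 0.012) and OAZ3 (-0.312 to 0.055). Recovered fragments of core genes ran over 442 to 7922 per sample. Since these are the smallest counts that the values allow, the counting errors of 4.76% to 1.12% are upper bounds.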
